A study of Homo sapiens with 12 samples.

Results

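The genes described here are 10 components of the tight junction: the claudins CLDN1, CLDN2, CLDN3, CLDN4 and CLDN7, the strand protein OCLN, the scaffold TJP1, the adhesion molecules F11R and ESAM, and the polarity protein CRB3. They were listed by symbol and matched to Ensembl identifiers, which gave 1 identifier for each of the 10 among the 60664 in the table. Their levels were measured by RNA sequencing in 12 samples of human hepatoma cells, as TPM, a length-scaled share of each library's transcripts. The 4 groups, of 3 samples each, were MHCC-97H with si-CENPU, MHCC-97H with the control si-NC, Huh-7 with si-CENPU and Huh-7 with si-NC. MHCC-97H and Huh-7 are established lines (the titles and cell line labels name them, while the tissue and source labels give tumour tissue), si-CENPU is a small interfering RNA against the kinetochore gene CENPU, and both members of each pair were transfected cells in the same serum-containing medium. Nothing in the labels said whether the 3 samples of a group were separate cultures, and the spread behind each p-value is that between samples as deposited, whether biological or technical.

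Tight junctions seal the space between neighbouring epithelial cells and separate the apical from the basolateral membrane. Claudins form the strands and set which ions pass between cells, and the zonula occludens scaffolds tie the strands to actin. In liver, these junctions close the bile canaliculus off from blood.

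CENPU itself was low in every library. It was listed at 0.22, 0.45 and 0.24 TPM in MHCC-97H with si-CENPU, against 1.17, 0.83 and 0.89 TPM in MHCC-97H with si-NC. In Huh-7 it stood at 0.17, 0.11 and 0.45 TPM with si-CENPU, against 0.56, 0.84 and 0.53 TPM with si-NC. The groups did not overlap in either line, with an exact two-sided permutation p of 0.1 in each, the smallest that 3 against 3 allows. In the limma fit described below, run without its expression filter, CENPU had an adjusted p of 0.537 in MHCC-97H and 0.955 in Huh-7. The columns summed to between 998416 and 999065 TPM, and 18639 to 20900 genes lay above 0 in a library. Huh-7 with si-NC replicate 1 stood somewhat apart, with a mean correlation of 0.965 to the other Huh-7 libraries across genes, against 0.975 to 0.978 for the others. Each library's deviation from its line's mean also followed transcript GC content to a different degree, with Spearman correlations across genes of -0.53 in MHCC-97H si-NC replicate 1 and 0.477 in MHCC-97H si-NC replicate 3 at the extremes. With a GC correction, 0 members were called on knockdown in either line. Library depth is unknown, because TPM does not retain it.

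The stretches of promoter sequence from RefSeq on GRCh38.p14 are shown because they belong to the claudins that separated the lines and to CRB3, which was abundant in both. Windows of 250 bases before a RefSeq start were found for 8 of the 10 genes, all but F11R and ESAM, and numbered 14 in all, since some genes have several starts. Each is given 5′ to 3′ on the gene's strand, and the capitals mark CAGGTG, the E-box form bound by the repressors SNAI1 and ZEB1, or GGGCGG, the GC box bound by Sp1, on either strand. The CLDN3 window is chr7:73770271-73770520 on the minus strand, and the window at the upstream CLDN7 start is chr17:7263214-7263463 on the minus strand. Both lie outside annotated exons. The other 3 are 30-base stretches inside annotated exons: chr7:73830937-73830966 on the plus strand for CLDN4, chr17:7262479-7262508 on the minus strand for the downstream CLDN7 start, and chr19:6464170-6464199 on the plus strand for CRB3.
CLDN3: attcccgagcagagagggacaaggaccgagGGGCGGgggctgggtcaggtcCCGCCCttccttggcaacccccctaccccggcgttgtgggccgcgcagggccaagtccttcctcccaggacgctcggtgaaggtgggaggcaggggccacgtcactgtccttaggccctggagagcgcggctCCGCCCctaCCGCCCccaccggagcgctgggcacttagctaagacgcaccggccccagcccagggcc
CLDN7, upstream start: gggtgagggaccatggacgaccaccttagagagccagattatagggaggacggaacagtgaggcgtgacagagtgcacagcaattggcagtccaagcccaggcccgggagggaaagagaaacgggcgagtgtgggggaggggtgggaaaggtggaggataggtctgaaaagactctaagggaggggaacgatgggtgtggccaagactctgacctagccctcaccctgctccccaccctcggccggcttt
CLDN4: ctccctctgcccCCGCCCctctgccagagc
CLDN7, downstream start: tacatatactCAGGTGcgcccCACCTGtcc
CRB3: ctcagcgaggctCAGGTGcacaagccggaa

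The whole 250-base window of CLDN3 held 4 GGGCGG and no CAGGTG, with a GC content of 71.6%. CLDN4 had 1 GGGCGG and no CAGGTG, at 58.8% GC. The CLDN7 window at the upstream start held neither, while that at the downstream start held 4 CAGGTG and 1 GGGCGG. The CRB3 window held 5 CAGGTG and 3 GGGCGG. Over the 14 windows, 5 held CAGGTG and 9 held GGGCGG, and none held TATAAA or AACCNGTT, the site of grainyhead-like factors. Among all 35116 RefSeq windows of this length, searched on both strands, the shares were 17.5% for CAGGTG, 42.6% for GGGCGG, 10.7% for TATAAA and 1.49% for AACCNGTT, and the median GC content was 58.0%. A match describes the letters in a window and is no measure of binding.

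The 2 lines carried different junction transcripts. In MHCC-97H, CLDN7 was the most abundant of the 10, followed by ESAM, CLDN4 and CRB3, and CLDN3 was listed at 0 in all 6 libraries. In Huh-7, CRB3 was by far the most abundant, CLDN7 and CLDN3 followed at similar levels, and CLDN4 and ESAM were near 0. By median over the 6 libraries of a line, the order in MHCC-97H was CLDN7 at 65.3 TPM, ESAM at 46.7, CLDN4 at 26.1, CRB3 at 17.2, TJP1 at 4.05 and F11R at 0.435 TPM. None of these 6 overlapped the next in range. OCLN, CLDN1, CLDN2 and CLDN3 came last, at 0.1 TPM or less, and overlapped their neighbours in range. In Huh-7 the order was CRB3 at 65.2 TPM, CLDN7 at 7.28, CLDN3 at 5.94, F11R at 2.95 and TJP1 at 1.55 TPM, with every other member at 0.405 TPM or less. CRB3 stood clear of CLDN7, CLDN3 of F11R, and TJP1 of CLDN2, whereas CLDN7 and CLDN3 overlapped, as did F11R and TJP1. The plot of all 10 genes by library shows the replicates lying close together and the lines far apart for CLDN4, ESAM, CLDN7 and CRB3.

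**Figure D1:**
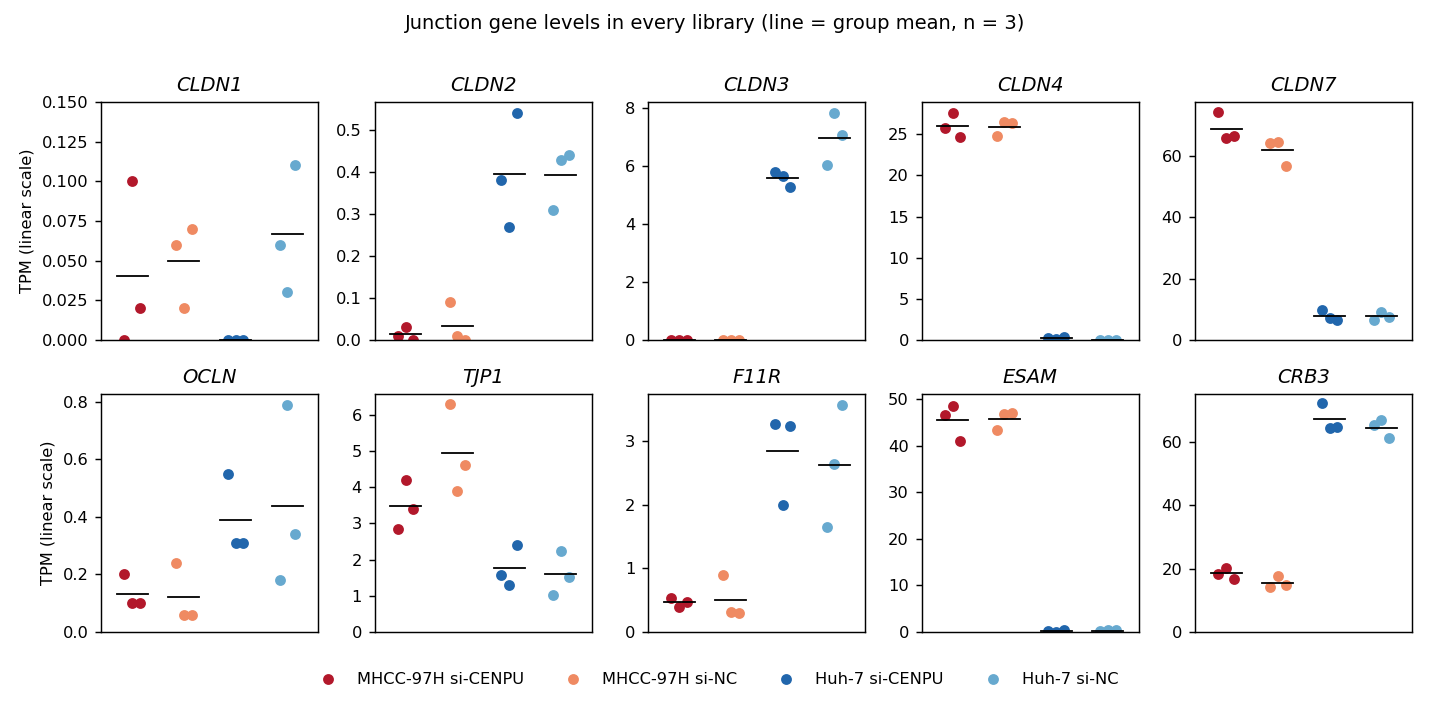
TPM of the 10 junction genes in each library, on a linear axis scaled to each gene, with MHCC-97H left of Huh-7 and si-CENPU left of si-NC. Each point is a library and each bar a group mean. CLDN4 and ESAM lie above 24 TPM in the MHCC-97H libraries and below 0.4 TPM in the Huh-7 libraries.

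Of the 10 genes, 7 had a mean of at least 1 TPM over the 12 libraries and entered the limma fit across 11088 genes on log2(TPM + 1). CLDN4 and ESAM passed only by their level in MHCC-97H, and CLDN3 and F11R only by their level in Huh-7, so these 4 had to differ between lines. The p-values given below for these 4 between the lines are therefore descriptive and are no support for a difference. With si-NC, 4 of the 7 were higher and 3 lower in MHCC-97H than in Huh-7 at an adjusted p below 0.05. Over all tested genes, 73.0% were called in this comparison, 50.1% higher and 22.9% lower. With si-CENPU the member counts were again 4 higher and 3 lower, against 70.1% of all genes called, 46.2% higher and 23.9% lower. The groups of all 7 did not overlap under either siRNA, as for 74.7% of all tested genes with si-CENPU and 73.0% with si-NC. Since most genes differed between the lines, the number called says little about the members, and their values are given 1 by 1. The median difference of all tested genes was 0.49 with si-NC and 0.40 with si-CENPU on this log2 scale, and -0.03 in both after trimmed-mean scaling, so values below are also given on the scaled data. The median of the 7 members was 1.20 with si-NC and 0.71 with si-CENPU as deposited.

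CLDN7, a claudin of the lateral membrane that binds EPCAM, had the highest level of the 10 members in MHCC-97H. It was listed at 74.32, 65.86 and 66.63 TPM in MHCC-97H with si-CENPU, against 9.67, 7.01 and 6.64 TPM in Huh-7 with si-CENPU. With si-NC it had 64.36, 64.77 and 56.81 TPM in MHCC-97H, against 6.43, 9.03 and 7.55 TPM in Huh-7. Every MHCC-97H library was above every Huh-7 library. The ratio of group means was 8.87 with si-CENPU and 8.08 with si-NC. By limma the difference was 2.87 ± 0.15 (SE) with si-NC, adjusted p = 8.61e-09, and it was 2.27 after trimmed-mean scaling. With si-CENPU it was 3.01 ± 0.15 (SE), limma adjusted p = 5.52e-09, and 2.52 after scaling. CLDN7 lies at chr17:7259903-7263983 on the minus strand (GRCh38, GENCODE release 29). It shares 38 bases with ELP5 on the opposite strand, a gene listed at 37.82 to 55.6 TPM, and the strand setting of the counting is not given in the sources used here. CLDN7 also shares 2187 bases with AC003688.1 on the same strand, listed at 0 to 0.49 TPM.

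CLDN4, a barrier claudin and receptor of the Clostridium perfringens enterotoxin, was found almost only on the MHCC-97H side. With si-CENPU it had 25.73, 27.55 and 24.65 TPM in MHCC-97H, against 0.17, 0.1 and 0.29 TPM in Huh-7. Under si-NC the values were 24.85, 26.48 and 26.44 TPM in MHCC-97H, against 0, 0.01 and 0 TPM in Huh-7. The lines were separated by a wide gap under both siRNAs. The limma difference was 4.75 (adjusted p = 4.4e-12) with si-NC and 4.51 (adjusted p = 6.9e-12) with si-CENPU, or 4.43 and 4.23 after trimmed-mean scaling. These sizes depend on the added 1 TPM, since Huh-7 was near 0, and with an added 0.1 TPM they were 7.98 and 6.56. In bulk RNA, fewer cells with a transcript and less of it per cell cannot be told apart.

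CLDN3, a barrier claudin that binds the same toxin, showed the opposite arrangement. It was listed at 0 in all 6 MHCC-97H libraries. In Huh-7 it had 5.82, 5.66 and 5.3 TPM with si-CENPU, against 6.05, 7.83 and 7.1 TPM with si-NC. It was lower in MHCC-97H under both siRNAs, with limma adjusted p = 2.05e-09 with si-CENPU and 8.9e-10 with si-NC, and no fold is given against a line listed at 0. CLDN3 and CLDN4 are neighbours on chromosome 7, at chr7:73768997-73770270 on the minus strand and chr7:73799542-73832693 on the plus strand, with 29271 bases between them. These nearby genes thus had opposite line patterns.

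The remaining 2 claudins were scarce in both lines and fell below the filter. CLDN2, which forms cation-selective pores in leaky epithelia, was listed at 0.01, 0.03 and 0 TPM in MHCC-97H with si-CENPU, against 0.38, 0.27 and 0.54 TPM in Huh-7 with si-CENPU. With si-NC it had 0.09, 0.01 and 0 TPM in MHCC-97H, against 0.31, 0.43 and 0.44 TPM in Huh-7. The lines did not overlap, with differences of -0.46 and -0.43 and an exact two-sided permutation p of 0.1 in each, 0.3 after adjustment over the 12 tests of this kind. Without the filter, limma gave an adjusted p of 0.000525 for CLDN2 with si-CENPU and 0.00077 with si-NC. CLDN2 lies across MORC4 on the opposite strand over 30698 bases, and MORC4 was listed at 0.37 to 2.2 TPM. CLDN1, a barrier claudin of hepatocytes and a co-receptor of hepatitis C virus, was at most 0.11 TPM in any library. Its groups overlapped between the lines with si-NC and with si-CENPU.

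Set beside all claudins, the 5 described here were most of the claudin transcripts of MHCC-97H but few of those of Huh-7. The 24 claudin genes summed to between 96.87 and 112.09 TPM in MHCC-97H libraries, and to between 72.33 and 83.83 TPM in Huh-7 libraries. In MHCC-97H, CLDN7 made up 58.6% to 66.3% of this sum, CLDN4 23.0% to 27.3% and CLDN15 8.32% to 10.3%. In Huh-7, CLDN6, an embryonic claudin often seen in tumours, made up 71.6% to 78.6%. CLDN7 followed there with 8.03% to 11.5%, CLDN3 with 6.41% to 9.48% and CLDN23 with 2.5% to 3.67%. Each line had 4 claudins with a mean of at least 1 TPM, and only CLDN7 was shared between the leading sets named here. The plot of claudin transcripts gives the TPM behind this composition library by library.

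**Figure D2:**
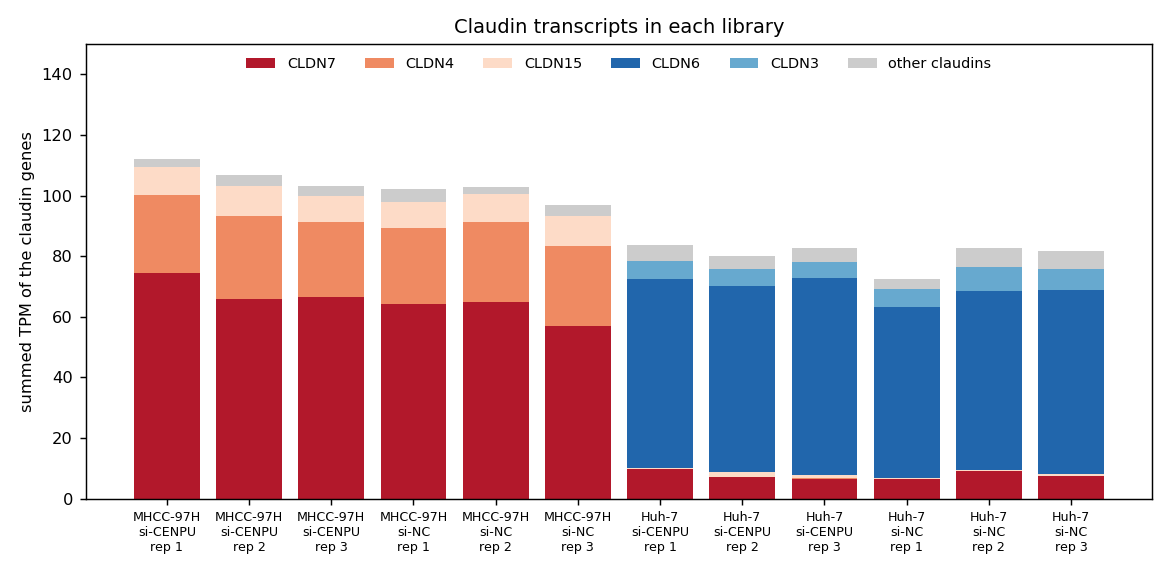
Summed TPM of the claudin genes, as stacked bars with 1 bar per library, MHCC-97H left of Huh-7 and si-CENPU left of si-NC. The height of each segment is the TPM of that claudin, and the claudins not drawn singly form the last segment. CLDN7 and CLDN4 fill most of each MHCC-97H bar and CLDN6 most of each Huh-7 bar.

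OCLN, a strand protein of the MARVEL family, was near 0 throughout. It had 0.2, 0.1 and 0.1 TPM in MHCC-97H with si-CENPU, against 0.55, 0.31 and 0.31 TPM in Huh-7 with si-CENPU, with no overlap. In cells with si-NC it stood at 0.24, 0.06 and 0.06 TPM in MHCC-97H, against 0.18, 0.79 and 0.34 TPM in Huh-7, so the lines overlapped there. The exact two-sided permutation p was 0.1 with si-CENPU and 0.2 with si-NC, or 0.3 and 0.48 after adjustment. A pseudogene copy, OCLNP1, was listed at 0 to 0.07 TPM, and reads could be split between the copies.

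TJP1 encodes ZO-1, the scaffold that links the strands to actin. It had 2.86, 4.21 and 3.39 TPM in MHCC-97H with si-CENPU, against 1.57, 1.3 and 2.41 TPM in Huh-7 with si-CENPU. With si-NC it had 6.31, 3.89 and 4.62 TPM in MHCC-97H, against 1.01, 2.24 and 1.52 TPM in Huh-7. The lines did not overlap under either siRNA, though the replicates spread widely. With si-NC the limma difference was 1.20 ± 0.22 (SE), adjusted p = 0.000521, and 0.76 after trimmed-mean scaling, adjusted p = 0.00241. With si-CENPU it was 0.71 ± 0.22 (SE), adjusted p = 0.0147 by limma. The call with si-CENPU was lost after trimmed-mean scaling (0.35, limma adjusted p = 0.0944) and quantile normalization (0.41, limma adjusted p = 0.0515). The call was also lost without MHCC-97H si-CENPU replicate 2 (0.60, limma adjusted p = 0.0601) and without Huh-7 si-CENPU replicate 2 (0.59, limma adjusted p = 0.061). TJP1 lies at chr15:29699367-29968865 on the minus strand and shares 273 bases with HMGN2P5 on the opposite strand, which was listed at 0 to 5.27 TPM.

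F11R and ESAM are immunoglobulin-domain adhesion molecules of the junction, and they went opposite ways between the lines. F11R, or JAM-A, had 0.54, 0.4 and 0.47 TPM in MHCC-97H with si-CENPU, against 3.28, 2 and 3.25 TPM in Huh-7 with si-CENPU. With si-NC, F11R had 0.9, 0.31 and 0.3 TPM in MHCC-97H, against 1.66, 2.65 and 3.58 TPM in Huh-7. Every MHCC-97H library was below every Huh-7 library. The limma difference was -1.37 (adjusted p = 0.000249) with si-CENPU and -1.26 (adjusted p = 0.000441) with si-NC, or -1.64 and -1.58 after trimmed-mean scaling. With an added 0.1 TPM in place of 1, the differences were -2.34 and -2.25. F11R shares 23392 bases with AL591806.3 on the same strand, which was listed at 0 TPM in every library.

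ESAM is best known from endothelial cells and platelets, and on log2(TPM + 1) it had the largest difference between the lines among the 7 tested members. With si-CENPU it had 46.65, 48.59 and 40.95 TPM in MHCC-97H, against 0.28, 0.09 and 0.33 TPM in Huh-7. Under si-NC, ESAM had 43.44, 46.72 and 46.95 TPM in MHCC-97H, against 0.17, 0.33 and 0.36 TPM in Huh-7. The lines were far apart, and the limma difference was 5.24 (adjusted p = 5.99e-12) with si-CENPU and 5.18 (adjusted p = 6.42e-12) with si-NC, or 4.95 and 4.80 after trimmed-mean scaling. With an added 0.1 TPM in place of 1 it was 7.17 with si-CENPU and 6.93 with si-NC, and CLDN4, at 7.98, was then above ESAM with si-NC. The 7 endothelial markers examined summed to 0.5 to 0.7 TPM in MHCC-97H with si-CENPU and 0.35 to 0.68 TPM with si-NC. In Huh-7 they summed to 0.01 to 0.24 TPM with si-CENPU and 0.26 to 0.37 TPM with si-NC. None of the 7 reached a mean of 1 TPM in any group. PECAM1 was listed at 0 in all 6 MHCC-97H libraries and at 0 to 0.04 TPM in Huh-7 with si-NC. VWF was higher in MHCC-97H, at 0.28 to 0.49 TPM with si-CENPU and 0.29 to 0.55 TPM with si-NC. In Huh-7, VWF stood at 0 to 0.01 TPM with si-CENPU and 0.04 to 0.09 TPM with si-NC. No other marker of the 7 separated the lines without overlap. A link of these markers to ESAM was not tested. ESAM lies at chr11:124752583-124762290 on the minus strand and overlaps AP000866.2 on the opposite strand over 3162 bases, listed at 0 to 2.94 TPM.

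CRB3, the epithelial Crumbs protein that organizes the apical domain and the assembly of tight junctions, was abundant in both lines and lower in MHCC-97H. It had 18.29, 20.34 and 16.81 TPM in MHCC-97H with si-CENPU, against 72.27, 64.58 and 64.91 TPM in Huh-7 with si-CENPU. In cells with si-NC, CRB3 had 14.13, 17.61 and 14.93 TPM in MHCC-97H, against 65.43, 67.01 and 61.47 TPM in Huh-7. The groups were well separated, and Huh-7 means were 3.64 times those of MHCC-97H with si-CENPU and 4.15 times with si-NC. The limma difference was -1.81 (adjusted p = 2.54e-08) with si-CENPU and -1.99 (adjusted p = 1.1e-08) with si-NC, or -2.31 and -2.60 after trimmed-mean scaling. CRB3 lies at chr19:6463777-6467221 on the plus strand and shares 1427 bases with SLC25A23 on the opposite strand, listed at 11.32 to 20.49 TPM. The plot of line differences sets 6 of the 7 tested members side by side and leaves out CLDN3, which was at 0 in MHCC-97H.

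**Figure D3:**
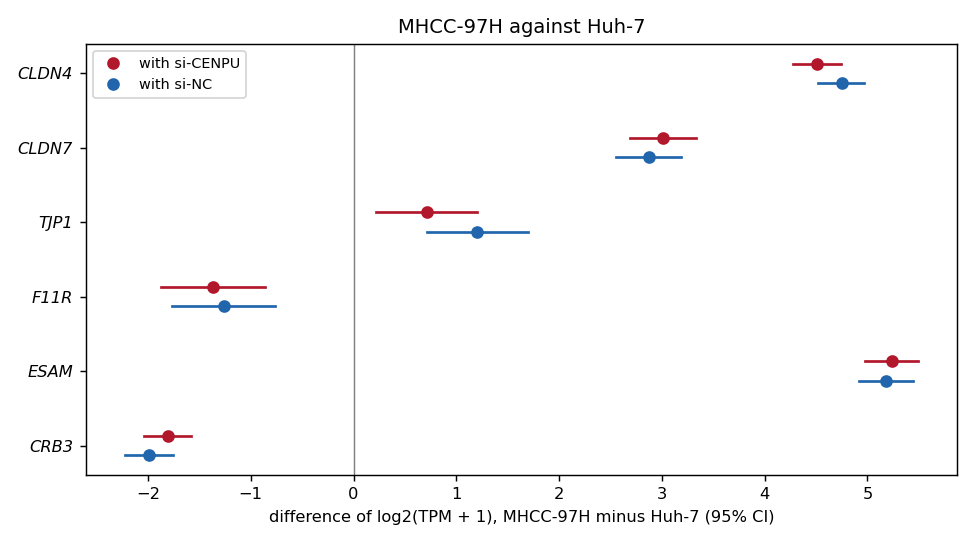
Difference of log2(TPM + 1) between MHCC-97H and Huh-7 for 6 tested junction genes, with 95% confidence intervals from limma, for cells with si-CENPU (above) and with si-NC (below). ESAM, CLDN4, CLDN7 and TJP1 lie right of 0 and F11R and CRB3 left of it under both siRNAs.

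The hepatocyte markers also divided the lines. The 8 markers, among them ALB, APOA1 and AFP, summed to 0.59 to 1.27 TPM in MHCC-97H with si-CENPU and 0.31 to 0.48 TPM with si-NC, and 0 of the 8 reached a mean of 1 TPM. In Huh-7 they summed to 6640.47 to 7549.21 TPM with si-CENPU and 7089.03 to 7562.89 TPM with si-NC, with all 8 above that level. The 5 cholangiocyte markers summed to 510.98 to 595.15 TPM in MHCC-97H, nearly all of it KRT7, with KRT19 at most 0.46 TPM. They summed to 191.06 to 229.84 TPM in Huh-7, where KRT19 led and KRT7 was at most 0.44 TPM. The 6 stellate or fibroblast markers summed to at most 4.3 TPM in any library. The 4 matched leukocyte markers summed to 17.5 to 20.27 TPM in MHCC-97H and 47.08 to 72.09 TPM in Huh-7, from CD68 and LYZ. The part of these differences in the junction genes was not tested.

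With si-CENPU against si-NC, no difference in a tested junction gene passed the test in either line. By limma with adjustment over 11088 genes, 0 of the 7 tested members were called in MHCC-97H and 0 of 7 in Huh-7. In each line 1 gene of the table was called, 0.00902% of those tested. At an unadjusted p below 0.05 there was 1 member in MHCC-97H (CRB3) and 2 in Huh-7 (CLDN3 and CLDN4), while 3.42% and 4.57% of all tested genes lay below that level in these lines. The median change of the 7 members was 0.00 in MHCC-97H and 0.06 in Huh-7. Groups did not overlap for 1 of the 7 in MHCC-97H (CLDN7, higher), where 6.95% of all tested genes had groups apart. In Huh-7 they did not overlap for 2 of the 7 (CLDN3, lower, and CLDN4, higher), where the share of all genes was 7.65%.

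CRB3 in MHCC-97H averaged 18.5 ± 1.77 TPM with si-CENPU and 15.6 ± 1.82 TPM with si-NC (SD, n = 3 each), and the groups overlapped. The log2 difference was 0.24, with a 95% interval of 0.01 to 0.47 and a limma adjusted p of 1. CLDN7 in MHCC-97H averaged 68.9 ± 4.68 TPM with si-CENPU and 62.0 ± 4.48 TPM with si-NC, a difference of 0.15 with an interval of -0.17 to 0.47. In Huh-7 the intervals were -0.17 to 0.28 for CRB3 and -0.31 to 0.33 for CLDN7. CLDN3 in Huh-7 averaged 5.59 ± 0.266 TPM with si-CENPU and 6.99 ± 0.895 TPM with si-NC (SD, n = 3 each). Its log2 difference was -0.27, with a 95% interval of -0.53 to -0.01 and a limma adjusted p of 1. CLDN4 in Huh-7, near 0 in both groups, differed by 0.24 (0.01 to 0.47), and with an added 0.1 TPM in place of 1 the same libraries gave 1.42 and a limma adjusted p of 0.0596. CLDN4 in MHCC-97H, where it was abundant, averaged 26.0 ± 1.47 TPM with si-CENPU and 25.9 ± 0.93 TPM with si-NC, with an interval of -0.23 to 0.23.

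TJP1 had the widest interval of the abundant members in MHCC-97H. It averaged 3.49 ± 0.68 TPM with si-CENPU and 4.94 ± 1.24 TPM with si-NC (SD, n = 3 each), a log2 difference of -0.40 with an interval of -0.89 to 0.10. In Huh-7 the difference was 0.10, with an interval of -0.40 to 0.59. ESAM in MHCC-97H averaged 45.4 ± 3.97 TPM with si-CENPU and 45.7 ± 1.96 TPM with si-NC, with an interval of -0.27 to 0.25. F11R in Huh-7 averaged 2.84 ± 0.731 TPM with si-CENPU and 2.63 ± 0.96 TPM with si-NC, with an interval of -0.41 to 0.60. These intervals leave room for changes of the sizes they span, and the knockdown plot shows that all but 3 of them include 0.

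Among the members below the filter, CLDN1 was listed at 0 in all 3 Huh-7 libraries with si-CENPU, against 0.06, 0.03 and 0.11 TPM with si-NC. The exact two-sided permutation p was 0.1, or 0.3 after adjustment over 12 tests. In MHCC-97H it was listed at 0, 0.1 and 0.02 TPM with si-CENPU, against 0.06, 0.02 and 0.07 TPM with si-NC, which overlap. For CLDN2 and OCLN the siRNA groups overlapped in both lines, with exact permutation p-values between 0.6 and 1. The response to si-CENPU was also compared between the lines. The difference of responses, MHCC-97H minus Huh-7, was called for 0 of the 7 members, against 0.00902% of all tested genes. The smallest unadjusted p was that of CLDN3, at a difference of 0.27 and a limma adjusted p of 0.999.

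**Figure D4:**
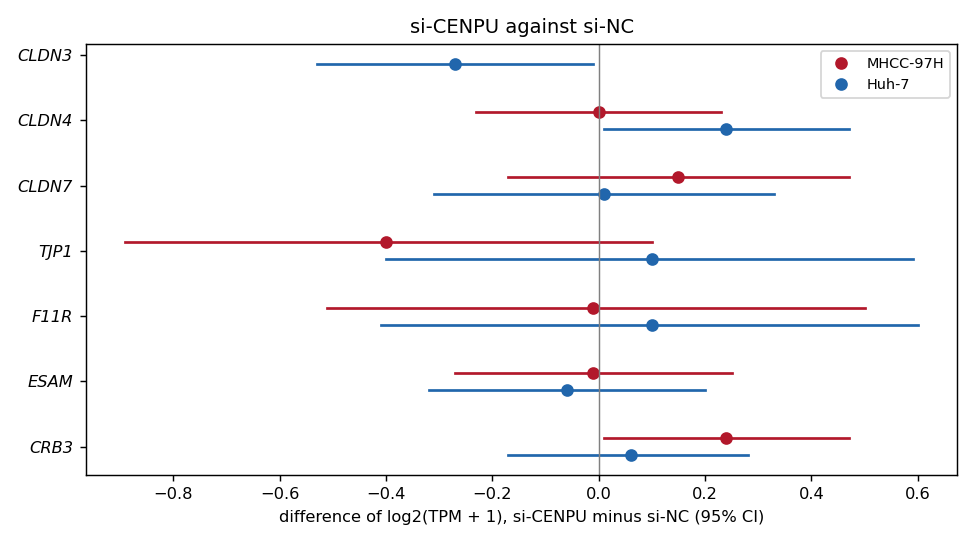
Difference of log2(TPM + 1) between si-CENPU and si-NC for the 7 tested junction genes, with 95% confidence intervals from limma, in MHCC-97H (above) and Huh-7 (below); CLDN3 in MHCC-97H, at 0 in all libraries, is not drawn. The intervals lie between -0.89 and 0.60.

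The other genes of the junction were counted from a list of 60 further tight junction and polarity genes, of which 28 were tested. With si-NC, 14 were higher and 10 lower in MHCC-97H than in Huh-7, 85.7% of those tested, against 73.0% of all genes. With si-CENPU the counts were also 14 and 10, against 70.1% of all genes. The list's median difference was 0.47 with si-CENPU and 0.44 with si-NC, close to the 0.40 and 0.49 of all tested genes. The 4 with the smallest adjusted p in both comparisons were CLDN6, LSR, LIN7B and PARD6A. CLDN6 stood at 0 to 0.05 TPM in MHCC-97H and at 56.39 to 64.99 TPM in Huh-7. It passed the filter only by its level in Huh-7, so it too had to differ between the lines. Other tested genes of the list also reached a mean of 1 TPM in only 1 line. Among these were CLDN15 and PALS1 in MHCC-97H and CGN in Huh-7. The counts of the list are therefore descriptive. LSR, or angulin-1, which marks tricellular contacts, averaged 2.32 ± 0.514 TPM in MHCC-97H and 31.96 ± 6.19 TPM in Huh-7 with si-NC (SD, n = 3 each), with a limma difference of -3.30, adjusted p = 4.48e-09. LIN7B, a scaffold of the Crumbs complex, was lower in MHCC-97H by limma, at -2.01 with an adjusted p of 8.02e-08 with si-NC. PARD6A, the partner of atypical protein kinase C, was higher there, at 2.04 with an adjusted p of 3.79e-07.

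None of the 28 was called on CENPU knockdown in either line, and none had an unadjusted p below 0.05. The smallest unadjusted values in MHCC-97H were those of CLDN23 and LLGL2. CLDN23 was listed at 0.36, 0.33 and 0.3 TPM with si-CENPU, against 0.74, 0.6 and 0.65 TPM with si-NC, and the groups did not overlap. LLGL2, a basolateral polarity protein, had 45.29, 56.8 and 45.56 TPM with si-CENPU, against 37.89, 47.43 and 44.33 TPM with si-NC in that line. In Huh-7 LLGL2 had 27.21, 25.84 and 26.76 TPM with si-CENPU, against 30.95, 30.15 and 31.7 TPM with si-NC, so the values lay on opposite sides in the lines, which differed by 0.39 (limma adjusted p = 0.999). CLDN15, which forms cation pores in the intestine, differed by 0.40 in Huh-7, again with a limma adjusted p of 1.

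Of 17 adherens junction and desmosome genes, 14 were tested, and 6 were higher and 5 lower in MHCC-97H under both siRNAs, 78.6% of those tested, against 70.1% of all genes with si-CENPU and 73.0% with si-NC. None was called on knockdown. Of 22 transcription and splicing factors known to act on epithelial junction genes, 11 were tested. In MHCC-97H against Huh-7, 2 were higher and 5 lower with si-CENPU, and 3 higher and 5 lower with si-NC, or 63.6% and 72.7% of those tested. The shares over all genes were 70.1% and 73.0%, so these counts say nothing particular about the list. CDX2, an intestinal homeobox factor, was listed at 0 in all MHCC-97H libraries and at 20.33 to 28.41 TPM in Huh-7. FOXA2, a factor of endoderm, was also listed at 0 in all MHCC-97H libraries and stood at 7.73 to 12.43 TPM in Huh-7. None of the 11 was called on knockdown.

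The genes whose pattern over the 12 libraries lay nearest to that of ESAM and CLDN3 were found by the root mean square difference of log2(TPM + 1), after centring each gene on its own mean. These 2 members had the largest line difference in each direction with si-NC on log2(TPM + 1), an order that depends on the added 1 TPM, since CLDN4 exceeded ESAM with an added 0.1 TPM. For ESAM the nearest were TNFRSF1A, at 0.112, FSCN1, at 0.115, and KRT80, at 0.127. TNFRSF1A, the receptor of tumour necrosis factor, stood at 31.46 to 40.14 TPM in MHCC-97H and at 0.02 to 0.13 TPM in Huh-7. FSCN1 stood at 283.31 to 352.56 TPM in MHCC-97H and at 7.93 to 9.32 TPM in Huh-7, so it shared the shape of ESAM and not its level. For CLDN3 they were ENHO, at 0.0992, the gene ENSG00000286543, which has no symbol in the annotation used, at 0.107, and ITPKA, at 0.11. ENHO stood at 0 to 0.04 TPM in MHCC-97H and at 5.37 to 7.84 TPM in Huh-7. ITPKA, a kinase that binds actin, stood at 11.25 to 13.93 TPM in MHCC-97H and at 81.74 to 112.08 TPM in Huh-7, so it matched in shape and not in level.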

How the data were processed

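RNA was sequenced from 12 samples of 2 hepatoma lines, 3 per group, grouped by the sample titles. The authors deposited TPM values, and HISAT2, StringTie and GRCh38.p13 are named per the submitters' processing notes. Tool versions, annotation release and strand setting were not given in the sources used here. Symbols and coordinates came from GENCODE release 29 on GRCh38 (60447 of 60664 identifiers matched), and promoter windows from RefSeq. Values were put on log2(TPM + 1), which understates changes of low genes. The 11088 genes with a mean of at least 1 TPM were fitted with limma 3.58.1 in R 4.3.3, 1 mean per group and a variance trend, with Benjamini-Hochberg adjustment at 0.05, and the fit was tested on simulated data. Members below the filter had exact two-sided permutation tests. The genes named are the 10 members, CENPU, the smallest adjusted p-values of each list and the nearest patterns. A gene of the regulator list that this rule took is not reported here. The members and lists were chosen with earlier results of these data known. Plots used matplotlib 3.10.9 and Python 3.11.15. The alternatives were no filter, an added 0.1 or 0.5 TPM, a mean of at least 5 TPM, trimmed-mean and quantile scaling, each contrast's 6 samples alone, a replicate block, no variance trend, a GC correction and leaving out each library.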

Additional observations from a re-analysis of the deposited data

How the results depend on the processing

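The count of members called on si-CENPU was 0 in both lines, and 0 for the difference of responses, under every alternative run. Between the lines, the 7 calls with si-NC became 8 without the filter and 4 of 4 tested at a mean of at least 5 TPM. The 7 calls with si-CENPU became 8 and 4 under the same filters and 6 after trimmed-mean scaling or quantile normalization, in both cases by losing TJP1, and 6 to 7 when a library was left out. After each group's gene means were subtracted, same-numbered si-NC and si-CENPU samples of a line correlated between -0.0914 and 0.134. The best match had the same number only for MHCC-97H replicate 3. With 3 samples per group, these values cannot decide whether the numbers paired the samples. With the replicate block the counts were 0, 0, 7, 7 and 0. No line difference changed sign, but with an added 0.1 TPM those of members near 0 in 1 line were larger, F11R reaching -2.34 with si-CENPU and -2.25 with si-NC. Values near 0 on knockdown did. In Huh-7, CLDN7 (0.01) was -0.02 after trimmed-mean scaling and -0.01 after quantile normalization. Leaving out a library gave -0.14 to 0.12 for CLDN7, -0.07 to 0.27 for TJP1, -0.11 to 0.28 for F11R and -0.13 to 0.02 for ESAM there. In MHCC-97H, F11R (-0.01) was 0.05 with a pseudocount of 0.1, 0.03 after trimmed-mean scaling and 0.07 after the GC correction, and ESAM (-0.01) was 0.07, 0.04 and 0.02 after trimmed-mean scaling, quantile normalization and the GC correction. Leaving out a library gave -0.10 to 0.17 for F11R, -0.06 to 0.06 for ESAM and -0.04 to 0.04 for CLDN4. For the difference of responses, F11R was 0.01 after the GC correction and -0.29 to 0.10 over left-out libraries, and ESAM -0.04 to 0.12. The causes were not tested. Depth is unknown, 3 samples per group limit the precision, and genes listed near 0 cannot be told from undetected ones.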

Other observations

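TJP3, which encodes ZO-3, was listed at 9.93 TPM in replicate 2 of MHCC-97H with si-NC, against 0.82 and 0.6 TPM in the other 2 libraries of that group and 0.52 to 1.56 TPM in MHCC-97H with si-CENPU. In Huh-7 it stood at 13.98 to 15.19 TPM with si-CENPU and at 13.88 to 18.24 TPM with si-NC. ELF3, an epithelial transcription factor, had 62.58, 71.99 and 65.19 TPM in MHCC-97H with si-CENPU, against 47.43, 53.68 and 52.97 TPM in MHCC-97H with si-NC. These groups did not overlap, and the limma difference of 0.37 had an adjusted p of 0.973. Both genes were singled out after their values were seen.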
